A study of Mus musculus with 9 samples.

Results

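The contractile actin cytoskeleton genes described here are 10 genes, Acta2, Tagln, Cnn1, Cnn2, Tpm1, Tpm2, Myl9, Flnc, Vim and Srf, taken by symbol from the 24411 genes of each deposited table. They were put together with earlier results of these libraries in view, namely lower values in both edited genotypes, so their differences between genotypes are descriptions. Where calls from the fit across all genes are counted among them, the count is set beside its background and supports nothing. The cells were EB5, a mouse embryonic stem cell line derived from E14tg2a. They grew on gelatin in serum-containing medium with leukemia inhibitory factor, which holds stem cells undifferentiated. Polyadenylated RNA was sequenced from 9 libraries, 3 for each genotype. Zfp352/Zfp353-DKO cells had lost Zfp352 and Zfp353 by CRISPR-Cas9 deletion, Zfp352-KO cells had lost Zfp352 alone, and Parental cells were the unedited EB5 line. Neither the number of clones behind an edited genotype nor the use of separate cultures is stated in the labels, so a p-value here reflects the spread among these libraries, which may be technical.

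Contractile bundles of the cytoplasm are built from actin filaments, which tropomyosins coat, filamins crosslink and bipolar myosin filaments pull on. Calponins and transgelin bind along these filaments and are known as markers of smooth muscle and of stress fibres. Serum response factor, encoded by Srf, binds the CArG box in the promoters of many of these genes, together with myocardin-related cofactors that globular actin holds back from the nucleus. Vimentin, from Vim, forms the intermediate filaments of mesenchymal cells and is also made by cultured stem cells.

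Promoter letters are shown because several of the 10 genes are known targets of serum response factor. Windows of 300 bases, from 250 before to 50 after an annotated start, were taken from RefSeq on GRCm38.p6, the assembly also called mm10. Of the 10 genes 9 matched, the exception being Tagln, and Flnc had a window at each of 2 starts. The CArG box was searched in its exact form, whose pattern reads the same on both strands, and again with up to 1 departure. An exact box stood in 3 of the 10 windows, those of Srf, Cnn2 and Myl9, and in 1.63% of all 32851 windows. With up to 1 departure, 6 of the 10 windows held one, against 21.1% of all windows. Known targets of serum response factor are among the 10 genes by choice, so nothing is read from these shares. The windows below show in capitals the exact boxes of Srf, Cnn2 and Myl9 and, for Acta2, the 2 boxes with 1 departure.
Srf (chr17:46556113-46556412, minus strand): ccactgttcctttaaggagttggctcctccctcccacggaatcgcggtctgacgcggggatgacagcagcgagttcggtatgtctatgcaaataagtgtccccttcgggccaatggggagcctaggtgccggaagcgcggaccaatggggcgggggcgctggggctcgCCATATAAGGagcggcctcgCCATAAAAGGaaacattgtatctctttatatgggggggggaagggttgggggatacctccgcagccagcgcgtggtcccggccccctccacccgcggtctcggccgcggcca
Cnn2 (chr10:79988350-79988649, plus strand): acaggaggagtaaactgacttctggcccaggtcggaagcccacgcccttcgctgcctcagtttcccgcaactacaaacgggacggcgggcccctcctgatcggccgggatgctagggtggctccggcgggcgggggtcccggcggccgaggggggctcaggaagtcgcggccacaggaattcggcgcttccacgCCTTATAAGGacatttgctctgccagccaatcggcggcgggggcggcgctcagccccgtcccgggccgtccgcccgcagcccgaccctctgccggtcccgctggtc
Myl9 (chr2:156775214-156775513, plus strand): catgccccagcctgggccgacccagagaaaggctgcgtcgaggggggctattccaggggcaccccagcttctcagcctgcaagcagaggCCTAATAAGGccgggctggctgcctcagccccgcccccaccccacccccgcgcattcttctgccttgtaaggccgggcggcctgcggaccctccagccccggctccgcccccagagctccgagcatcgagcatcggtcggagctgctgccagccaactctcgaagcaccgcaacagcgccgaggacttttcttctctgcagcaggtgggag
Acta2 (chr19:34255324-34255623, minus strand): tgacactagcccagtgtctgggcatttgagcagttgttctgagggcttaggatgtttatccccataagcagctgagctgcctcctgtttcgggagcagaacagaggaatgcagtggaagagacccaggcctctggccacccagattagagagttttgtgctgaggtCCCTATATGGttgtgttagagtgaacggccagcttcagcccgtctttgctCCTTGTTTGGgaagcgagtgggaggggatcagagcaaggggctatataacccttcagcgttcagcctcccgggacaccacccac

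Counted from the annotated start, the Srf boxes began at -82 and -62, that of Cnn2 at -56 and that of Myl9 at -161. In the Acta2 window the boxes with 1 departure began at -84 and -34. The Srf and Tpm1 windows lie wholly inside the widest annotated spans of their genes, at starts within them. Some other windows, that of Acta2 among them, also have their start within the span but reach past its end. Tpm1 and the upstream Flnc window held boxes with 1 departure, and the windows of Cnn1, Tpm2 and Vim held none in either form. The letters CATTCC, the core bound by TEAD factors, were searched on both strands and stood in 4 of the 10 windows, those of Acta2, Tpm1 and both of Flnc, and in 14.7% of all windows. The Flnc windows overlap and hold the same CATTCC site, which is thus counted in both. They overlapped no CArG box in these windows. A match of letters is a description of the window and says nothing of binding in these cells.

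Library depth ran from 16599004 to 22044820 expected counts, and the 10 genes together took 0.0373% to 0.0478% of the counts in edited libraries and 0.0617% to 0.0627% in Parental libraries. These shares rest on counts, not on levels per length. The targeted gene Zfp352 had expected counts of 1, 1 and 3 in Zfp352/Zfp353-DKO libraries and 3, 8 and 10 in Zfp352-KO libraries, against 47, 52 and 41 in Parental libraries. Zfp353 was not analysed here. The libraries also differed in their dependence on transcript length, with overlap between Zfp352/Zfp353-DKO and each of the other genotypes. Over 12695 genes, the Spearman correlation of length with a library's log2 CPM (counts scaled to the library size) less the 9-library mean ran from -0.131 to 0.429 in Zfp352/Zfp353-DKO, from -0.0798 to 0.454 in Zfp352-KO and from -0.464 to -0.106 in Parental libraries. Genes are not independent replicates, so no p-value goes with these correlations.

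Levels are in TPM, each gene's share of a library's transcripts after scaling for transcript length, and so can be set against each other between genes. In Parental cells the order ran from Tpm1 at 208 ± 8.80 TPM (SD, n = 3) over Vim at 153 ± 6.72, Cnn2 at 80.0 ± 5.93, Tagln at 51.8 ± 2.77, Srf at 26.0 ± 1.85, Tpm2 at 21.8 ± 1.12, Acta2 at 14.5 ± 1.33, Flnc at 10.9 ± 0.855 and Myl9 at 5.95 ± 0.558 to Cnn1 at 4.32 ± 0.547 TPM. No neighbours in this order overlapped in the 3 Parental libraries. Tpm1 and Vim were thus far above the smooth muscle type genes Acta2, Myl9 and Cnn1 in unedited stem cells, and Tpm2 was nearer to Acta2.

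**Figure D1:**
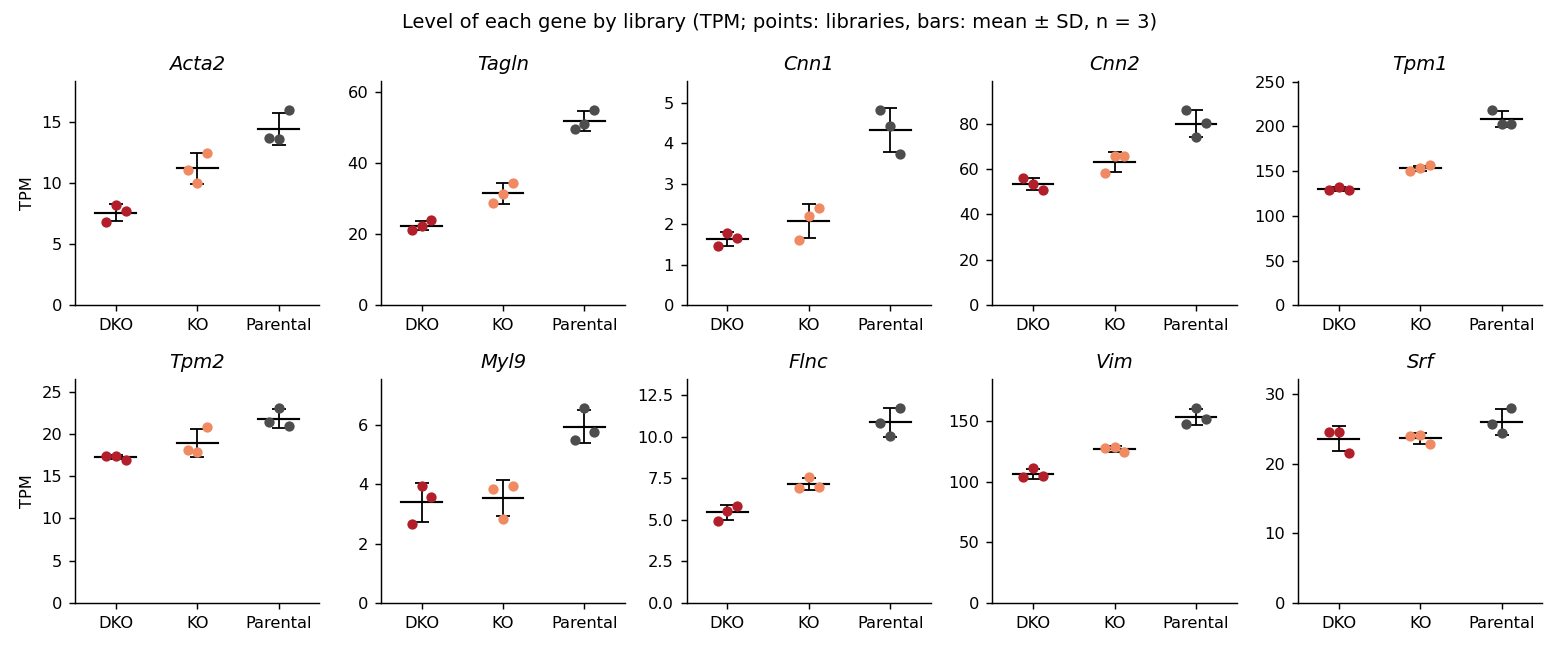
Level of the 10 genes in TPM (vertical axis, each panel from 0) in Zfp352/Zfp353-DKO (DKO), Zfp352-KO (KO) and Parental libraries; points are libraries and bars the mean ± SD of 3. In Tagln, Acta2, Tpm1, Vim, Flnc, Cnn2 and Tpm2 the 3 genotypes do not overlap, while for Srf DKO libraries lie at 21.6 to 24.6 TPM and Parental libraries at 24.3 to 28.0 TPM.

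Acta2 encodes the smooth muscle form of alpha-actin and lies on chromosome 19 at 34240336 to 34255585. It stood at 6.86, 8.22 and 7.72 TPM in Zfp352/Zfp353-DKO libraries and at 11.1, 10.1 and 12.5 TPM in Zfp352-KO libraries, against 13.7, 13.7 and 16.0 TPM in Parental libraries. All double knockout libraries lay below all Zfp352-KO libraries, and these below all Parental libraries. The fitted log2 fold change was -0.97 ± 0.10 (SE) in Zfp352/Zfp353-DKO against Parental cells, -0.41 ± 0.09 in Zfp352-KO against Parental cells and -0.56 ± 0.10 in Zfp352/Zfp353-DKO against Zfp352-KO cells. Acta2 thus had the largest fitted difference between the edited genotypes among the 10 genes, larger than that of Zfp352-KO from Parental cells. That the 2 steps differ was not tested.

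Tagln encodes transgelin, an actin-binding protein of the calponin family, on chromosome 9 at 45929628 to 45936058. Its level was 21.2, 22.2 and 23.9 TPM in Zfp352/Zfp353-DKO libraries and 28.7, 31.3 and 34.4 TPM in Zfp352-KO libraries, against 49.5, 51.0 and 54.9 TPM in Parental libraries. The 3 genotypes did not overlap, and the fitted ratio of Zfp352/Zfp353-DKO to Parental was 0.421. Its log2 fold change between Zfp352/Zfp353-DKO and Zfp352-KO cells was -0.49 ± 0.08 (SE). The annotated span of Tagln overlaps that of Pcsk7, a proprotein convertase gene. Of the 9 Tagln counts 6 were not whole, so some reads were divided with another gene. Which gene that was, and how many reads were divided, was not resolved. Pcsk7 itself stood at 6.94, 8.06 and 7.91 TPM in Zfp352/Zfp353-DKO and 7.44, 7.76 and 7.05 TPM in Zfp352-KO libraries, against 7.14, 6.08 and 7.93 TPM in Parental libraries.

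The calponin genes Cnn1 and Cnn2 differ in where they are made, calponin 1 being typical of smooth muscle and calponin 2 being made in many cell types. Cnn1, on chromosome 9 at 22099221 to 22109221, was at 1.45, 1.78 and 1.67 TPM in Zfp352/Zfp353-DKO libraries and at 1.61, 2.20 and 2.41 TPM in Zfp352-KO libraries, against 4.81, 4.42 and 3.73 TPM in Parental libraries. The edited genotypes overlapped each other and neither overlapped the Parental libraries. Cnn1 had the lowest fitted values of the 10 genes, with a log2 fold change of -1.45 ± 0.19 (SE) in Zfp352/Zfp353-DKO and -1.09 ± 0.18 in Zfp352-KO against Parental cells. It rests on few reads, with 27 to 51 expected counts in each edited library and 76 to 111 in each Parental library. Cnn2, on chromosome 10 at 79988600 to 79995400, was at 56.2, 53.3 and 50.8 TPM in Zfp352/Zfp353-DKO libraries and at 58.1, 65.5 and 65.7 TPM in Zfp352-KO libraries, against 85.9, 74.0 and 80.1 TPM in Parental libraries. Here all 3 genotypes were apart, at a log2 fold change of -0.62 ± 0.07 in Zfp352/Zfp353-DKO and -0.38 ± 0.07 in Zfp352-KO against Parental cells.

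Tropomyosins are coiled-coil dimers that lie along the actin filament and set which myosins and other proteins reach it. Tpm1, on chromosome 9 at 67022590 to 67049672, was at 129, 133 and 129 TPM in Zfp352/Zfp353-DKO libraries and at 150, 153 and 156 TPM in Zfp352-KO libraries, against 218, 203 and 202 TPM in Parental libraries. No genotypes overlapped, and the log2 fold change was -0.73 ± 0.05 (SE) in Zfp352/Zfp353-DKO and -0.49 ± 0.05 in Zfp352-KO against Parental cells. Tpm2, on chromosome 4 at 43513726 to 43523583, was at 17.5, 17.4 and 17.0 TPM in Zfp352/Zfp353-DKO libraries and at 18.2, 17.9 and 20.9 TPM in Zfp352-KO libraries, against 21.5, 23.1 and 20.9 TPM in Parental libraries. Zfp352-KO library 3, at 20.86 TPM, lay just under the lowest Parental library at 20.94 TPM. Tpm2 differed less than Tpm1, with log2 fold changes of -0.39 ± 0.08 in Zfp352/Zfp353-DKO and -0.24 ± 0.08 in Zfp352-KO against Parental cells.

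The tables also give a transcript length for each gene, averaged over its isoforms by their abundance, and this readout played no part in choosing the genes. It can vary only for Tpm1 and Tpm2, which have 10 and 3 transcripts in the tables. Tpm1 averaged 1624 ± 10.5 bases in Zfp352/Zfp353-DKO and 1636 ± 13.6 bases in Zfp352-KO libraries, against 1637 ± 2.23 bases in Parental libraries (SD, n = 3 each). Tpm1 lengths of double knockout libraries, at 1632, 1627 and 1612 bases, were below all Parental ones, at 1635, 1637 and 1640 bases, and Zfp352-KO libraries overlapped both. Tpm2 averaged 2182 ± 23.3 bases in Zfp352/Zfp353-DKO and 2218 ± 8.12 bases in Zfp352-KO libraries, against 2203 ± 30.1 bases in Parental libraries, with overlap of either edited genotype with Parental. Tpm2 lengths of Zfp352/Zfp353-DKO libraries, at 2202, 2156 and 2187 bases, were below all Zfp352-KO ones, at 2221, 2209 and 2224 bases. How often other genes have such orders of length was not examined, so nothing is read from them. Which isoforms were used was not resolved.

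Myl9 encodes a regulatory light chain of the myosin in smooth muscle and non-muscle cells, on chromosome 2 at 156775408 to 156781657. It stood at 2.66, 3.94 and 3.58 TPM in Zfp352/Zfp353-DKO libraries and at 3.85, 2.84 and 3.94 TPM in Zfp352-KO libraries, against 5.51, 6.58 and 5.77 TPM in Parental libraries. The edited genotypes covered the same range, and both lay below Parental. The log2 fold change was -0.86 ± 0.20 (SE) in Zfp352/Zfp353-DKO and -0.80 ± 0.19 in Zfp352-KO against Parental cells, and -0.06 ± 0.22 between the edited genotypes. With 31 to 77 expected counts per library it is the least well counted of the 10 genes beside Cnn1.

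Flnc encodes the muscle-type filamin that crosslinks actin at Z-discs and stress fibres, on chromosome 6 at 29433153 to 29461889. It was at 4.94, 5.54 and 5.85 TPM in Zfp352/Zfp353-DKO libraries and at 6.93, 7.57 and 6.99 TPM in Zfp352-KO libraries, against 10.8, 10.0 and 11.7 TPM in Parental libraries. The genotypes were apart in all libraries, with log2 fold changes of -1.04 ± 0.07 (SE) in Zfp352/Zfp353-DKO and -0.64 ± 0.06 in Zfp352-KO against Parental cells, and of -0.40 ± 0.07 between the edited genotypes. Its transcript of 9166 bases is the longest among the 10, and with the length trend removed from each library its log2 fold change was -1.12 and -0.77 in the same comparisons with Parental cells.

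Vim, on chromosome 2 at 13574311 to 13582826, was at 104, 111 and 105 TPM in Zfp352/Zfp353-DKO libraries and at 128, 129 and 125 TPM in Zfp352-KO libraries, against 148, 161 and 152 TPM in Parental libraries. Vim libraries of the 3 genotypes did not overlap, and the log2 fold change was -0.57 ± 0.05 (SE) in Zfp352/Zfp353-DKO and -0.32 ± 0.05 in Zfp352-KO against Parental cells. Srf, on chromosome 17 at 46546838 to 46558267, was at 24.6, 24.6 and 21.6 TPM in Zfp352/Zfp353-DKO libraries and at 24.0, 24.1 and 22.8 TPM in Zfp352-KO libraries, against 25.6, 24.3 and 28.0 TPM in Parental libraries. The transcription factor gene was thus slightly lower on average in edited cells, with log2 fold changes of -0.17 ± 0.06 and -0.18 ± 0.06, and was not called (edgeR adjusted p = 0.101 and 0.090). All Zfp352-KO libraries lay below all Parental libraries, while Parental library 2 lay between double knockout libraries. Between Zfp352/Zfp353-DKO and Zfp352-KO cells Srf differed by 0.01 ± 0.07.

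**Figure D2:**
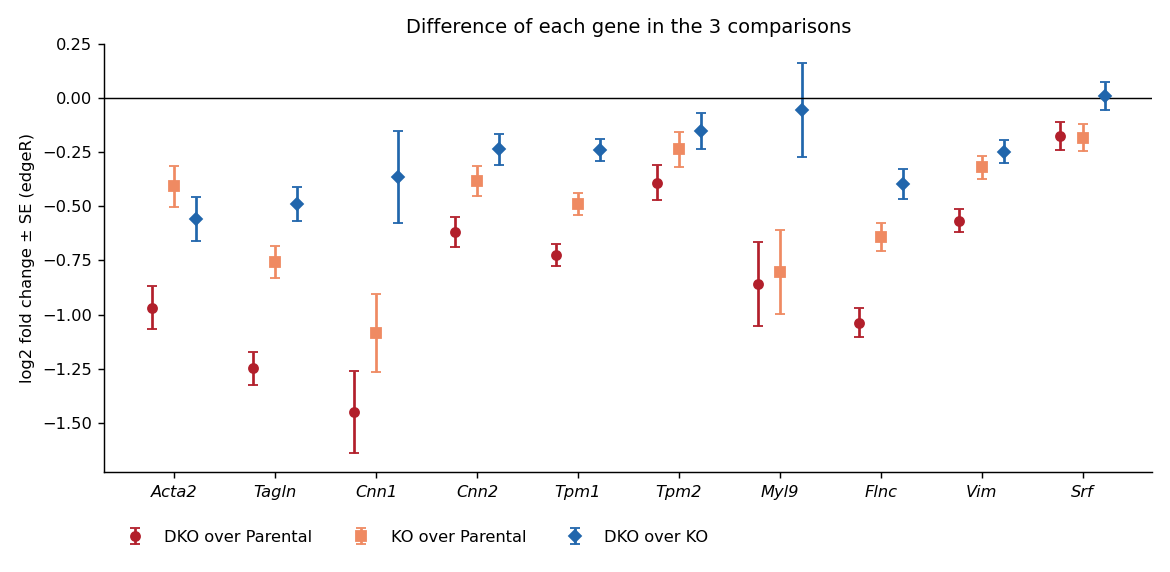
Fitted log2 fold change ± SE (vertical axis) of the 10 genes in Zfp352/Zfp353-DKO over Parental, Zfp352-KO over Parental and Zfp352/Zfp353-DKO over Zfp352-KO. Values run from -1.45 for Cnn1 to -0.17 for Srf in the first comparison, and in the last one Acta2 is lowest at -0.56 and Srf is at 0.01.

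All 10 genes passed the filter on low counts. Their median log2 fold change was -0.79 in Zfp352/Zfp353-DKO and -0.45 in Zfp352-KO against Parental cells and -0.24 between the edited genotypes, where the median of all 14300 tested genes lay within 0.01 of 0 each time. By edgeR's quasi-likelihood test across all genes, at a Benjamini-Hochberg adjusted p under 0.05, 9 of the 10 were called lower in Zfp352/Zfp353-DKO against Parental cells, where 4.82% of tested genes were called lower and 8.47% in either direction. In Zfp352-KO against Parental cells 8 were called lower, with a background of 3.64% lower and 7.06% in either direction. Between the edited genotypes 3 were called lower, with a background of 0.0909% lower, 0.014% higher and 0.105% in either direction. Those 3 were Tagln, Acta2 and Flnc. Since the genes were chosen on these contrasts, nothing is read from the counts.

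TPM was lower without overlap for 9 of the 10 genes in Zfp352/Zfp353-DKO against Parental libraries, where 11.0% of tested genes were, and for 10 in Zfp352-KO against Parental libraries, where 9.98% were. Between the edited genotypes 7 were lower without overlap in the double knockout, with 5.52% of tested genes. In 7 of the 10 genes, Acta2, Tagln, Cnn2, Tpm1, Tpm2, Flnc and Vim, all double knockout libraries were below all Zfp352-KO libraries and these below all Parental libraries, an order that 1.02% of tested genes had. The exceptions were Cnn1, Myl9 and Srf. The comparisons share libraries, so these counts are not independent of each other.

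The calls among these genes varied with the libraries in the fit, which is given as a description only. None of the 3 calls between the edited genotypes was kept in all 9 fits that left out 1 library. That of Acta2 was kept in only 1 of these fits, that of Flnc in 4 and that of Tagln in 5. Without Zfp352/Zfp353-DKO library 1 or 2, or without Zfp352-KO library 3, none of the 10 genes was called, and without Zfp352-KO library 2 or Parental library 1 only 1 was. A fit of the 6 edited libraries alone also called 0 (6 at an unadjusted p under 0.05), whereas DESeq2 and the fit with the length trend removed called 5. The fitted differences themselves stayed between -0.64 and -0.45 for Acta2, between -0.56 and -0.41 for Tagln and between -0.43 and -0.34 for Flnc over these fits. Against Parental cells, 6 of 8 calls in Zfp352-KO and 8 of 9 in Zfp352/Zfp353-DKO were kept in all 9 such fits. The call of Acta2 in Zfp352-KO cells was lost without Zfp352-KO library 1 or 2 or Parental library 3, and that of Myl9 without Zfp352-KO library 1 or 2 or Parental library 1 or 2. In the double knockout the call of Myl9 was lost without Parental library 2.

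The genes were next set against the relatives that do the same work in most cells. Tagln made up 12.4 ± 0.773% of the transgelin genes Tagln, Tagln2 and Tagln3 in Zfp352/Zfp353-DKO and 16.1 ± 0.537% in Zfp352-KO cells, against 22.5 ± 1.29% in Parental cells (SD, n = 3 each). This share was separate in all 3 genotypes.

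Tpm1 was 21.3 ± 0.188% of the 4 tropomyosin genes in Zfp352/Zfp353-DKO and 23.2 ± 1.06% in Zfp352-KO cells, against 28.3 ± 0.558% in Parental cells. Cnn1 was 0.573 ± 0.0559% of the 3 calponin genes in Zfp352/Zfp353-DKO and 0.670 ± 0.137% in Zfp352-KO cells, against 1.34 ± 0.156% in Parental cells. Acta2 was a small part of the actin transcripts throughout, at 0.150 ± 0.0126% of 6 actin genes in Zfp352/Zfp353-DKO and 0.217 ± 0.0276% in Zfp352-KO cells, against 0.265 ± 0.0303% in Parental cells. Myl9 made up 0.965 ± 0.182% of the light chain genes Myl9, Myl12a and Myl12b in Zfp352/Zfp353-DKO and 0.982 ± 0.178% in Zfp352-KO cells, against 1.49 ± 0.163% in Parental cells. The described gene had a smaller mean share of its family in edited cells in each of these 5 families, and for Acta2 the libraries of Zfp352-KO and Parental cells overlapped. The described genes were chosen for lower values in edited cells and their relatives were not. Smaller shares follow from that choice, so nothing is read from them.

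**Figure D3:**
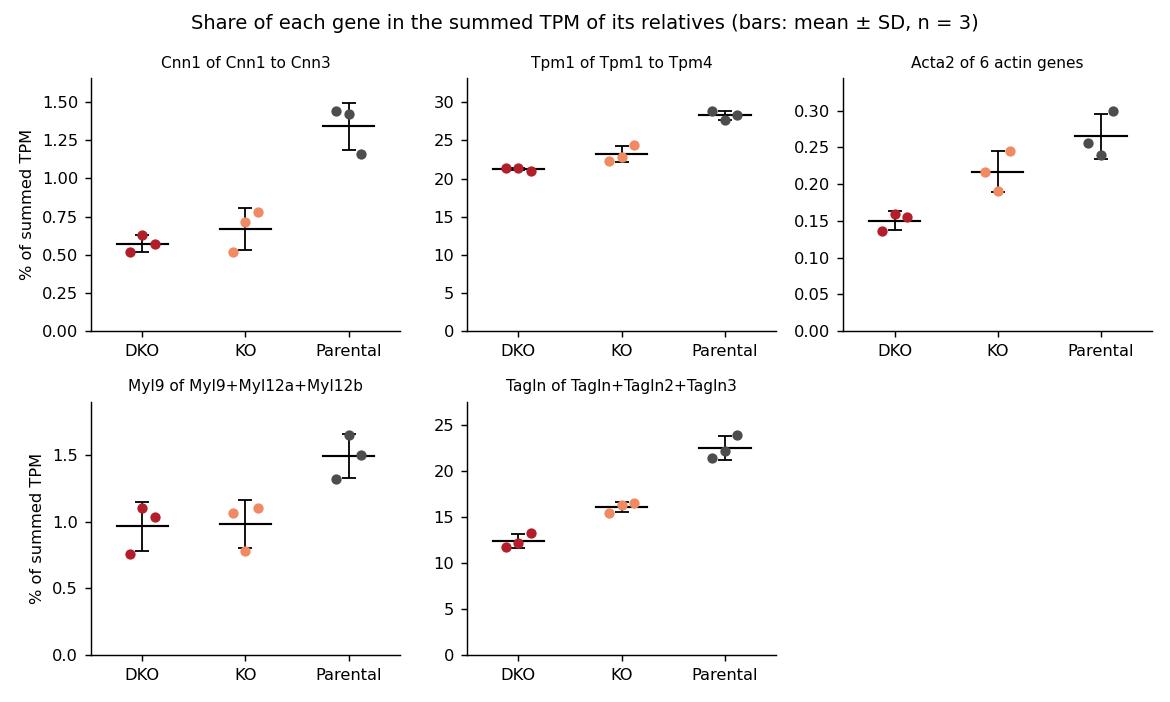
Share (percent of summed TPM, vertical axis from 0) of Cnn1 among the calponin genes, Tpm1 among the tropomyosin genes, Acta2 among 6 actin genes, Myl9 among 3 myosin light chain genes and Tagln among the transgelin genes, in Zfp352/Zfp353-DKO (DKO), Zfp352-KO (KO) and Parental libraries. Points are libraries and bars the mean ± SD of 3; the Tagln share is 12.4% in DKO and 16.1% in KO, against 22.5% in Parental cells.

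A wider list of 62 other genes of the actin cytoskeleton, drawn up by role, was read in the same fits, and 59 of them were tested. In Zfp352/Zfp353-DKO against Parental cells 23 were called, all lower, where 4.82% of tested genes were called lower and 3.65% higher. In Zfp352-KO against Parental cells 16 fell and 1 rose, with 3.64% and 3.43% of tested genes. Between the edited genotypes 1 was called, lower, where 0.0909% of tested genes were called lower. The median log2 fold change of the 59 was -0.15, -0.11 and -0.06 in these comparisons, smaller than the medians of the 10 genes. Leaving out Parental library 1 left 15 calls in Zfp352/Zfp353-DKO and 7 in Zfp352-KO against Parental cells, and the 17 calls in Zfp352-KO became 10 without Parental library 2, 9 without Zfp352-KO library 1 and 11 without Zfp352-KO library 2.

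Of the 12 adhesion genes tested, 6 fell in each comparison with Parental cells. Of all tested genes, 4.82% were called lower in Zfp352/Zfp353-DKO and 3.64% in Zfp352-KO against Parental cells. Csrp1, which encodes a LIM protein that binds alpha-actinin, fell to 50.6 ± 0.156 TPM in Zfp352/Zfp353-DKO and 52.9 ± 0.231 TPM in Zfp352-KO cells, against 69.7 ± 3.42 TPM in Parental cells. Its log2 fold change was -0.50 ± 0.05 (SE, edgeR adjusted p = 3.7e-06) in Zfp352/Zfp353-DKO and -0.44 ± 0.05 (adjusted p = 4.5e-05) in Zfp352-KO cells. Zyx, encoding the focal adhesion protein zyxin, fell by 0.64 ± 0.07 on the log2 scale in the double knockout (edgeR adjusted p = 1.6e-05) and by 0.44 ± 0.07 in Zfp352-KO cells (adjusted p = 0.0013). Pdlim7, a PDZ and LIM adaptor of stress fibres, fell by 0.44 ± 0.06 and by 0.40 ± 0.06 (edgeR adjusted p = 8.9e-05 and 0.00056). These 3 genes kept both calls in all 9 fits that left out 1 library. The 6 genes were not the same in both comparisons, as Fhl1 was called in Zfp352-KO cells only and Lpp in the double knockout only. In Zfp352-KO cells the calls of Fhl1, Tes and Fhl2 were kept in 2, 4 and 8 of these fits. In the double knockout Tes kept its call in 8 of them, and Fhl2 and Lpp in all 9. Vcl, Tln1 and Pxn, which encode the core adhesion proteins vinculin, talin and paxillin, were not called, with log2 fold changes from -0.08 to 0.11.

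Among thin filament regulators Tpm4 fell by 0.41 ± 0.05 in Zfp352/Zfp353-DKO and by 0.33 ± 0.05 in Zfp352-KO cells (edgeR adjusted p = 5.0e-05 and 0.00085). Cald1, the gene of caldesmon, which damps myosin activity on actin, fell by 0.56 ± 0.07 and by 0.34 ± 0.07 (edgeR adjusted p = 4.6e-05 and 0.0077), the second call being lost without Zfp352-KO library 2 or Parental library 1, and with limma-trend. Tagln2 fell by 0.23 ± 0.06 in the double knockout (adjusted p = 0.017), a call lost without Zfp352/Zfp353-DKO library 2 or 3 or Parental library 1 or 2, and the calponin gene Cnn3 and Tpm3 were called in neither comparison.

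The cytoplasmic actins, which make most of the actin in these cells, differed little. Actg1 stood at 3347 ± 32.4 TPM in Zfp352/Zfp353-DKO and 3464 ± 68.1 TPM in Zfp352-KO cells, against 3709 ± 122 TPM in Parental cells, and fell by 0.19 ± 0.05 in the double knockout (edgeR adjusted p = 0.017). That call was lost without Zfp352/Zfp353-DKO library 2 or 3 or Parental library 1 or 2. Actb was at 1699 ± 98.8 TPM in Zfp352/Zfp353-DKO and 1700 ± 34.9 TPM in Zfp352-KO cells, against 1736 ± 76.7 TPM in Parental cells, and was not called. Acta1, skeletal alpha-actin, fell to 2.61 ± 0.354 TPM in the double knockout, against 5.04 ± 0.0577 TPM in Parental cells (log2 fold change -0.99 ± 0.19, edgeR adjusted p = 0.0024).

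Of the 8 myosin genes the motor genes Myh9, Myh10, Myh11 and Myh14 were not called. The light chain gene Myl12a fell by 0.25 ± 0.05 in Zfp352/Zfp353-DKO cells (edgeR adjusted p = 0.0025) and by 0.19 ± 0.05 in Zfp352-KO cells (0.024), the second call being lost without any one of Zfp352-KO library 1 or 2 and Parental library 1 or 2, with the length trend removed and with limma-trend. Myl6, an essential light chain gene, fell by 0.22 ± 0.05 in the double knockout (edgeR adjusted p = 0.0091), a call lost without Parental library 2 or with the length trend removed. In Zfp352-KO cells it fell by 0.16 ± 0.05 (edgeR adjusted p = 0.04998), and this call was lost in 6 of the 9 fits that left out 1 library, those without any one Parental library, Zfp352-KO library 1 or 2 or Zfp352/Zfp353-DKO library 2, and with the length trend removed. RLE scaling, a replicate block and limma-trend lost it as well. The light chain gene Myl12b fell by 0.19 ± 0.06 in the double knockout (edgeR adjusted p = 0.0464), a call that held without Zfp352-KO library 1 or Parental library 3 and was lost without any other library and with the length trend removed. RLE scaling, a replicate block, the fit of the 6 libraries compared, DESeq2 and limma-trend lost this call as well. The crosslinker gene Actn4, encoding a non-muscle alpha-actinin, fell by 0.18 ± 0.05 in the double knockout (edgeR adjusted p = 0.024), a call lost without Zfp352/Zfp353-DKO library 2 or 3 or Parental library 1 or 3, and with a replicate block or limma-trend. Flna, which encodes a widely made filamin, was not called.

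Of the 7 filament turnover genes, 5 were called lower in Zfp352/Zfp353-DKO against Parental cells, with 4.82% of tested genes, and 4 in Zfp352-KO against Parental cells, with 3.64%. Tmsb4x, encoding the actin-sequestering thymosin beta 4, fell to 366 ± 16.8 TPM in Zfp352/Zfp353-DKO and 359 ± 3.43 TPM in Zfp352-KO cells, against 449 ± 23.5 TPM in Parental cells (edgeR adjusted p = 0.00051 and 0.00042). Gsn, encoding the filament-severing protein gelsolin, fell by 0.58 ± 0.11 and by 0.52 ± 0.11 (edgeR adjusted p = 0.0030 and 0.010), the second call being lost without Zfp352-KO library 1 or Parental library 1, and with limma-trend. Capg, which encodes a filament-capping protein, fell by 0.33 ± 0.07 and by 0.28 ± 0.07 (edgeR adjusted p = 0.0100 and 0.028). The first of these calls was lost without Zfp352/Zfp353-DKO library 2 or Parental library 1, and the second without Zfp352-KO library 1 or 3, Parental library 1 or 2, or with the length trend removed. With limma-trend both Capg calls were lost. Pfn1 kept its call in 5 of the 9 fits that left out 1 library, in either edited genotype against Parental cells. Cfl1, called in the double knockout only (edgeR adjusted p = 0.047), kept its call in 3 of these fits. Of the intermediate filament genes, Nes, encoding the progenitor protein nestin, fell by 0.70 ± 0.06 in Zfp352/Zfp353-DKO and by 0.34 ± 0.06 in Zfp352-KO cells (edgeR adjusted p = 7.6e-07 and 0.0033). It was the 1 gene of the list called between the edited genotypes (log2 fold change -0.37 ± 0.07, adjusted p = 0.032), and this call was lost without Zfp352/Zfp353-DKO library 1 or 2, Zfp352-KO library 2 or 3 or Parental library 1. Lmna, the gene of lamin A and C, fell by 0.45 ± 0.07 and by 0.40 ± 0.07 against Parental cells (edgeR adjusted p = 0.00047 and 0.0027).

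Of the cofactors of serum response factor, Mrtfa, listed as Mkl1, was at 14.0 ± 0.422 TPM in Zfp352/Zfp353-DKO and 13.7 ± 0.288 TPM in Zfp352-KO cells, against 13.2 ± 0.563 TPM in Parental cells. Mrtfb, listed as Mkl2, was at 7.22 ± 0.881 and 7.21 ± 0.698 TPM in these edited cells, against 6.22 ± 0.378 TPM in Parental cells. Neither these nor Elk1, Elk3 and Elk4, which encode ternary complex factors, were called by edgeR in any comparison, with adjusted p from 0.095 upwards. Myocd, the gene of myocardin, was too low to be tested. Ppp1r12a, which encodes a subunit of myosin phosphatase, was the 1 gene of the list that rose, and did so by 0.18 ± 0.05 in Zfp352-KO cells (edgeR adjusted p = 0.043). This call was lost in 6 of the 9 fits that left out 1 library, those without Zfp352/Zfp353-DKO library 2, Zfp352-KO library 1 or 2 or any one Parental library. Scaling by library totals only, a replicate block and limma-trend lost it as well.

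**Figure D4:**
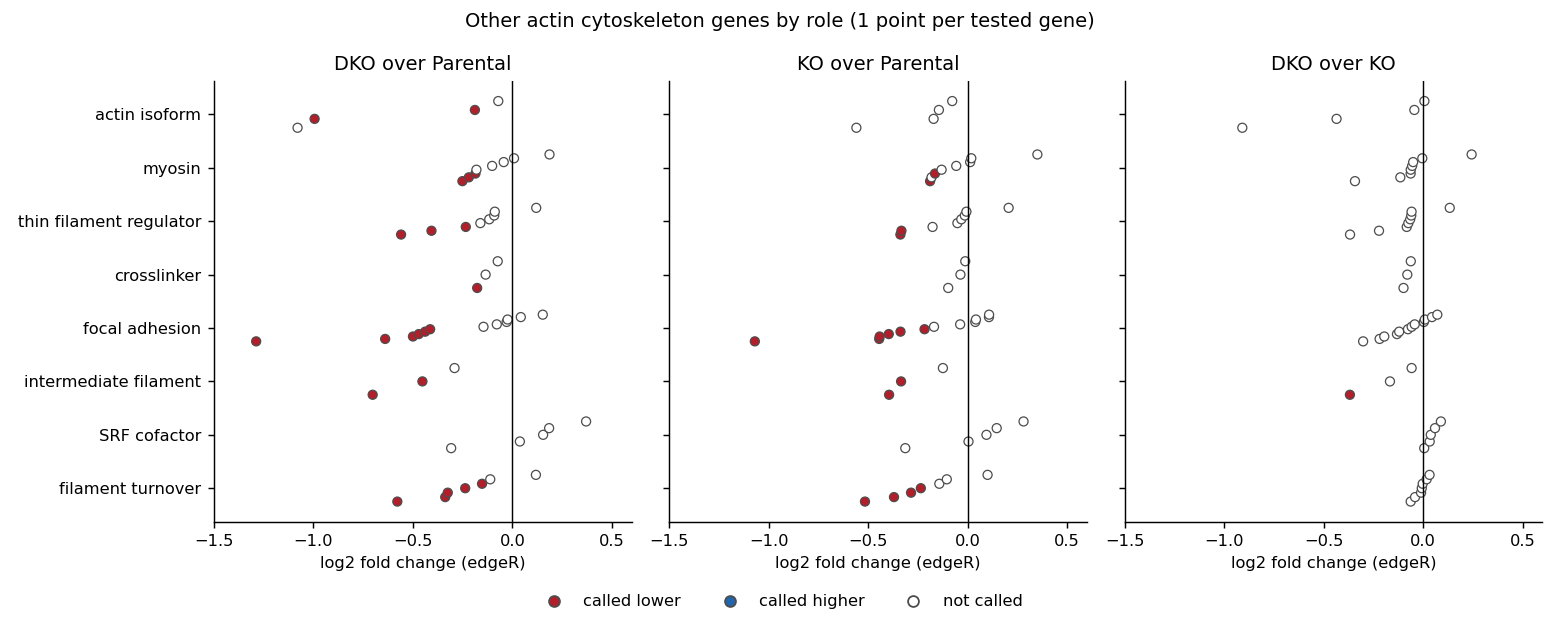
Fitted log2 fold change (horizontal axis) of 50 of the 59 tested genes of the wider actin list, in 8 roles from top to bottom, in Zfp352/Zfp353-DKO (DKO) over Parental, Zfp352-KO (KO) over Parental and DKO over KO; filled points were called at an adjusted p under 0.05. The filled points number 22, 16 and 1 and lie left of 0; the 1 gene called higher in KO over Parental, Ppp1r12a, is among the genes not plotted.

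Markers of other cell types were read because Acta2, Tagln and Vim are also abundant in fibroblasts and smooth muscle. The 8 stem cell markers summed to 7307 to 7393 TPM in Zfp352/Zfp353-DKO and 7257 to 7376 TPM in Zfp352-KO libraries, against 7321 to 7430 TPM in Parental libraries, near the same sum in all genotypes. Of the 8, 1 was called, higher in Zfp352/Zfp353-DKO against Parental cells, where 3.65% of tested genes were called higher. The 13 fibroblast markers summed to 27.6 to 31.5 TPM in Zfp352/Zfp353-DKO and 28.7 to 34.1 TPM in Zfp352-KO libraries, against 40.8 to 46.8 TPM in Parental libraries. Of the 11 tested ones 4 fell in Zfp352/Zfp353-DKO and 3 in Zfp352-KO against Parental cells and 1 between the edited genotypes. Among all tested genes 4.82%, 3.64% and 0.0909% were called lower in these comparisons. Of the 13 markers, 4 stayed below 1 TPM in every library, with Lum at 0 in 8 of the 9. Most of the difference in the fibroblast sum lay in Col1a1 and Col1a2. Col1a1 averaged 3.87 TPM in Zfp352/Zfp353-DKO and 5.53 TPM in Zfp352-KO cells, against 11.9 TPM in Parental cells. Col1a2 averaged 2.68, 4.13 and 6.29 TPM in the same order. Fbln1 and Twist1 were on average not lower in either edited genotype, so this sum does not speak for its list as a whole. The 8 smooth muscle markers summed to 52.7 to 56.1 TPM in Zfp352/Zfp353-DKO and 58.3 to 61.7 TPM in Zfp352-KO libraries, against 63.5 to 66.5 TPM in Parental libraries. Most of that sum was Smtn and Cald1, and the defining genes Myh11 and Myocd were at most at 0.25 and 0.08 TPM in any library. Of the 6 tested ones, Cald1 alone was called, lower in either edited genotype, beside the same shares of all tested genes.

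The 8 trophectoderm markers, which include the keratins of simple epithelia, summed to 220 to 226 TPM in Zfp352/Zfp353-DKO and 246 to 252 TPM in Zfp352-KO libraries, against 325 to 364 TPM in Parental libraries. Most of the difference lay in Krt8 and Krt18. Krt8 averaged 71.6 TPM in Zfp352/Zfp353-DKO and 83.4 TPM in Zfp352-KO cells, against 139 TPM in Parental cells. Krt18 averaged 69.8, 83.8 and 120 TPM in the same order. Tfap2c, Krt7, Gata3 and Elf5 were on average not lower in either edited genotype than in Parental cells. Of 7 tested markers 4 fell in either edited genotype. Of all tested genes, 4.82% were called lower in Zfp352/Zfp353-DKO and 3.64% in Zfp352-KO against Parental cells. Striated muscle markers summed to 7.37 to 8.16 TPM in Zfp352/Zfp353-DKO and 8.59 to 12.4 TPM in Zfp352-KO libraries, against 11.5 to 12.6 TPM in Parental libraries. Of 4 tested ones 1 fell, in Zfp352/Zfp353-DKO against Parental cells, with 4.82% of tested genes. The trophectoderm and smooth muscle sums were thus apart in all 3 genotypes, lowest in Zfp352/Zfp353-DKO and highest in Parental libraries. For smooth muscle most of the difference lay in Cald1. It averaged 17.7 TPM in Zfp352/Zfp353-DKO and 20.7 TPM in Zfp352-KO cells, against 25.3 TPM in Parental cells. Smtn averaged 30.3, 31.7 and 31.4 TPM in the same order. Neither sum speaks for its list as a whole. The fibroblast sums of both edited genotypes lay below Parental and overlapped each other, and the striated muscle sums of Zfp352/Zfp353-DKO libraries lay below those of the other genotypes, which overlapped. The part of these transcripts in the result was not tested. In these bulk libraries fewer cells that make a transcript and less of it per cell cannot be told apart.

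Across the 9 libraries the 10 genes also varied together, which the choice of genes and the shared genotypes both bear on. Pearson's r of log2 CPM with Tagln was 0.986 for Flnc, 0.974 for Tpm1, 0.961 for Vim, 0.955 for Acta2 and 0.955 for Cnn1, and 0.654 for Srf. Outside the 10, the genes most like Tagln over the 9 libraries were Col1a1 (r = 0.994), Zfp352 (0.991), Col5a1 (0.990), Prss23 (0.985) and Anxa3 (0.985). Those most like Acta2 were Col1a2 (r = 0.979), Lsp1 (0.975), Thbs1 (0.964), Suv39h1 (0.959) and Adgra3 (0.958). All points share the 3 genotypes and the same libraries, so these are descriptions without a p-value.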

How the data were processed

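RNA was measured in 9 libraries of EB5 mouse embryonic stem cells, made with a stranded polyadenylated-RNA kit, per the labels' protocols. The submitters' processing notes name Trim Galore 0.6.6, STAR 2.7.8a, RSEM 1.3.3 and the build mm10; their order and settings, the annotation release and the strand option were not stated in those notes. The deposited tables hold, per the file headers, expected counts (estimated counts that divide reads shared between genes), TPM, FPKM, and transcript lengths of each gene, an other measure in bases. Deposited FPKM values were left aside.

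Rounded expected counts entered the quasi-likelihood test of edgeR 4.0.16 under R 4.3.3 (TMM, filterByExpr; two-sided). A design with a mean per genotype used the 9 libraries jointly and left 6 residual degrees of freedom, with 14300 genes tested and calls at a Benjamini-Hochberg adjusted p under 0.05. SE values come from the F statistic. TPM shows levels. The scripts were tested on simulated data. Depth ran from 16599004 to 22044820 counts per library, which limits Cnn1 and Myl9 most.

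The genes, the lists and the tests were chosen with earlier results of these data known. Named genes were the 10 genes, Zfp352, and up to 3 called genes per role of the wider list with the smallest adjusted p. Cofactors of serum response factor and the 5 genes most like Acta2 and Tagln were named too. Uncalled genes beside them, and further called genes named for how well their calls held, were chosen after their values were seen. Of the 62 genes of the wider list, 61 had a row, and the results of some are not reported here. Alternatives were other scalings and filters, DESeq2 1.42.0, limma-trend 3.58.1 on log2(TPM + 1), a replicate block, a per-library length trend (local regression, span 0.3) as an offset, a fit restricted to the 6 libraries of a comparison, and leaving out each library in turn. Promoter windows are those of RefSeq, GRCm38.p6.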

Additional observations from a re-analysis of the deposited data

How the results depend on the processing

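The 10 genes kept a lower value than in Parental cells under all alternatives run, and their counts of calls ran from 6 to 9 in Zfp352-KO and from 8 to 9 in Zfp352/Zfp353-DKO when 1 library was left out. DESeq2 gave no adjusted p for Cnn1 and Myl9 in Zfp352-KO against Parental cells. Between the edited genotypes the 3 calls became 5 without a low-count filter, with the length trend removed and with DESeq2, 0 with limma-trend and with the 6 libraries compared, and 0 to 2 when 1 library was left out. At an unadjusted p under 0.05 limma-trend and the 6-library fit each had 6. There the log2 fold change of Myl9 ran from -0.207 to 0.0874 with 1 library left out, turning positive without Zfp352/Zfp353-DKO replicate 1 or Zfp352-KO replicate 3 (0.0547). That of Srf ran from -0.0384 to 0.0808, turning negative without Zfp352/Zfp353-DKO replicate 1 or 2 (-0.0303) or Zfp352-KO replicate 3 (-0.0041), and was -0.0034 with limma-trend. The cause was not tested.

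Over all genes, calls in Zfp352-KO against Parental cells numbered 1010, and 569 with the replicate block, 359 with limma-trend and 228 to 1530 when 1 library was left out. Those in Zfp352/Zfp353-DKO against Parental cells numbered 1211, 578 with limma-trend and 462 to 1354 with 1 library left out. With the length trend removed, 663 were lower and 777 higher there, against 689 and 522, and in Zfp352-KO against Parental cells 382 were lower and 447 higher, against 520 and 490. Between the edited genotypes 15 genes were called, and 66 without a filter, 40 with the length trend removed, 27 with DESeq2, 4 with the 6 libraries compared, 1 with limma-trend and 3 to 22 with 1 library left out. The wider list had 17 calls in Zfp352-KO against Parental cells, 15 with the length trend removed, 8 with limma-trend and 7 to 24 with 1 library left out, and 15 to 26 in the double knockout. Between the edited genotypes its 1 call became 0 with the replicate block, the 6 libraries compared and limma-trend (8, 9 and 5 at an unadjusted p under 0.05), and 0 to 2 with 1 library left out.

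Libraries with the same replicate number did not deviate together (r from -0.0767 to 0.106 over 9 pairs), so the numbers were not taken as a pairing. With the replicate block the 10 genes had 8, 9 and 2 calls in Zfp352-KO against Parental, Zfp352/Zfp353-DKO against Parental and the edited genotypes.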
